A study of Mus musculus with 14 samples.

Results

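The genes of the mouse mitochondrial genome were followed in RNA of liver and kidney from mice fed normally or given high salt. Members were chosen by name alone, as every row of the deposited gene count tables whose symbol starts with mt-. There were 17 such rows among 19660 genes in liver and 15 among 20203 genes in kidney, so 17 of the 22263 genes found in either table. Of the 37 annotated genes of the mitochondrial genome, all 13 protein genes and both ribosomal RNA genes had a row in each table. Of the 22 transfer RNA genes, mt-Ts1 and mt-Tp had a row in liver and none had a row in kidney. No row of either table has a total under 10 counts, so a gene with no row is not known to be at 0.

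The mice were adult males of 12 weeks, all of them transgenic for the human angiotensinogen gene with its -6A promoter haplotype, so the animals on the normal diet carried the transgene as well. Liver gave 8 libraries, 4 from each diet, and kidney 6, 3 from each diet, which makes 14 in all. The strain, the salt dose and its duration are not given in the sources used here, nor is it said whether liver and kidney came from the same animals, so p-values measure the spread between these libraries only. Library totals were 37267778 to 51487382 counts in liver and 16046094 to 22004927 in kidney. The high salt liver libraries are called HS5 to HS8 by their column names. Hepatocyte markers summed to 44470 CPM or more in liver (counts per 1000000 counts, TMM scaled, 5 of 5 listed genes in the table) and to 101.8 CPM or less in kidney. Proximal tubule markers summed to 1680 CPM or more in kidney (4 of 4 genes) and to 6.93 CPM or less in liver, so the tissue labels held.

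Mitochondrial DNA is a small circular genome present in many copies per cell. Its heavy and light strand promoters give long RNAs that are cut into ribosomal RNAs, messenger RNAs and transfer RNAs, largely at the transfer RNAs that lie between the other genes. The messenger RNAs encode core subunits of the respiratory chain (complexes I, III and IV) and of ATP synthase (complex V), and are translated inside the organelle on ribosomes built on mt-Rnr1 and mt-Rnr2. Kidney tubule cells and hepatocytes are both rich in mitochondria.

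Several neighbours on this compact genome share bases, which matters for how a read is counted. The reference is GRCm38 with GENCODE M21 genes, whose mt- start positions equal those in the deposited tables. The first set shows the overlaps, with the shared bases in capitals. The end of mt-Atp8, which encodes a small ATP synthase subunit, holds 43 bases that are also the start of mt-Atp6, the channel subunit (chrM:7897-7969, plus strand). The end of mt-Nd4l shares 7 bases with mt-Nd4, both being membrane subunits of complex I (chrM:10137-10173, plus strand). The ends of mt-Nd5 and mt-Nd6 face each other on opposite strands over 14 bases (chrM:13522-13565, plus strand, and chrM:13552-13595, minus strand). The transfer RNA for serine, mt-Ts1, lies on the minus strand with its last 3 bases opposite the end of mt-Co1 (chrM:6870-6938).
mt-Atp8 end: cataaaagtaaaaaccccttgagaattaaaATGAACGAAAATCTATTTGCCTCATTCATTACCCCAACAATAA
mt-Nd4l end: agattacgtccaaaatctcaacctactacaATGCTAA
mt-Nd5 end: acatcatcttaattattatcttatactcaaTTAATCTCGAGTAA
mt-Nd6 end: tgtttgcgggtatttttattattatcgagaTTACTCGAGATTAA
mt-Ts1: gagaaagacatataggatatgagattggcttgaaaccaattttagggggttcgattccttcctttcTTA

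A second set shows ends that rely on the poly(A) tail. The annotated genes mt-Co3, mt-Nd4 and mt-Cytb are 1 base longer than a multiple of 3 and end in T (capital), and it is textbook knowledge that such stop codons are completed by adenines added to the RNA. They lie at chrM:9351-9390, chrM:11505-11544 and chrM:15249-15288, all on the plus strand.
mt-Co3 end: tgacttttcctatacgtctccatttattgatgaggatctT
mt-Nd4 end: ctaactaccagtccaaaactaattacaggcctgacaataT
mt-Cytb end: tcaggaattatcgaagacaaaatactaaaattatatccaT

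Counts of these genes are also shared with copies of mitochondrial DNA in the nuclear genome. Of 14 listed candidate copies, 13 had rows in both tables and 9 aligned to a mitochondrial transcript. A block of 7 lies on chromosome 1 between 24611535 and 24616197 on the minus strand, and 5 of these have no mismatch to the mitochondrial gene over their aligned length. They are Gm28439 (876 of the 1378 bases of mt-Nd4), Gm10222 (294 bases of mt-Nd4l), Gm28437 (783 bases of mt-Co3), Gm10925 (678 bases of mt-Atp6) and Gm28661 (681 bases of mt-Co2). The other two differ at 1 base each, counted from the first base of the mitochondrial gene. Gm28438 differs from mt-Nd3 by T3C (position 9461 of the mitochondrial genome), and Gm29216, a copy of the last 483 bases of mt-Co1, by A1066T (position 6393). A further 2 copies, Gm13341 (95.9% identity to mt-Co2) and Gm13340 (97.6% to mt-Co1), lie on chromosome 2 between 22587291 and 22589647. The third set shows the bases that differ in capitals, and the first bases of mt-Co2 and its copy (start codon in capitals), which are the same. They lie at chrM:9459-9491 and chr1:24613087-24613119, chrM:6390-6423 and chr1:24616155-24616188, and chrM:7013-7072 and chr1:24615506-24615565, with the chromosome 1 stretches on the minus strand.
mt-Nd3: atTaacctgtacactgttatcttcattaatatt
Gm28438: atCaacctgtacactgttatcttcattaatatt
mt-Co1: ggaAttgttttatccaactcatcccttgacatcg
Gm29216: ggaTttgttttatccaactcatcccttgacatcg
mt-Co2: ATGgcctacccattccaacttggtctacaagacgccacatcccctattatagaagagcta
Gm28661: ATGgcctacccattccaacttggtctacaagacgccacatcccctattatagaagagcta

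Some of these copies carried as many counts as the mitochondrial gene itself. The ratio of Gm28437 to mt-Co3 counts was 1.00 in each of the 8 liver libraries and 0.978 to 0.994 in kidney. Gm10925 stood at 0.996 to 0.999 of mt-Atp6 in liver and 0.981 to 0.988 in kidney. Gm28661 stood at 0.999 to 1.21 of mt-Co2 in liver and 0.983 to 0.997 in kidney, and its 2 values above 1.1 were those of normal diet liver libraries 1 (1.16) and 2 (1.21). Whether reads that fit both places were divided between them or counted in each cannot be told apart from these ratios. The counts of mt-Co2, mt-Co3, mt-Atp6, mt-Nd3 and mt-Nd4l are therefore uncertain to about the size of their copies' counts.

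Other copies were counted differently in the 2 tissues. Gm28438 stood at 1.13 to 1.35 of mt-Nd3 in liver and 0.954 to 0.995 in kidney, with no overlap. Gm10222 stood at 0.321 to 0.609 of mt-Nd4l in liver and 0.804 to 1.04 in kidney. Gm28439, identical to the first 876 bases of mt-Nd4, stood at 4.41e-05 to 0.000126 in liver and at 0.0225 to 0.0387 in kidney. The tissues also differ in their table, sequencing depth and column series, so the tissue and the run of the quantification cannot be told apart here.

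The copy of the end of mt-Co1 separated the liver diets by a wide margin. Gm29216 per count of mt-Co1 was 0.0714, 0.0734, 0.0709 and 0.0578 in normal diet liver libraries 1 to 4 and 0.0108, 0.0082, 0.0139 and 0.0108 in HS5 to HS8. Every normal diet library lay above every high salt library, including the 2 with few mitochondrial counts. Of all genes, 12.5% had liver diets that did not overlap in CPM and 0.324% relative to the mitochondrial sum. Neither share is per count of mt-Co1, and Gm29216 was 1 of 9 aligned copies looked at. In kidney the ratios of Gm29216 to mt-Co1 were 0.0108, 0.0124 and 0.0254 without added salt and 0.0337, 0.0246 and 0.0469 with it, which overlap. In the fit of all genes by the quasi-likelihood test of edgeR, Gm29216 was at -2.85 on the log2 scale for high salt minus normal diet in liver (SE 0.93, adjusted p = 0.143) and did not pass. It passed at that size with DESeq2 (adjusted p = 0.0407) and at -3.75 in edgeR without normal diet liver libraries 1 and 2 (adjusted p = 0.0396), and over all alternatives the adjusted p ran up to 0.352. The difference between the tissues' diet effects was 3.31 by edgeR (SE 1.14, adjusted p = 0.362).

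The 2 copies on chromosome 2 had ratios that did not overlap between the kidney diets. Of all genes, 17.7% did not overlap relative to the mitochondrial sum, which is another denominator, and 6.88% did not in CPM. Gm13341 per count of mt-Co2 was 0.0110, 0.0102 and 0.0127 on the normal diet and 0.0193, 0.0176 and 0.0186 on high salt. Gm13340 per count of mt-Co1 was 0.00524, 0.00521 and 0.00667, then 0.0107, 0.00851 and 0.0092. Both copies were thus higher per mitochondrial count in every high salt kidney library. In liver Gm13340 went the other way, at 6.49e-05 to 8.32e-05 on the normal diet and 5.62e-05 to 6.16e-05 on high salt. Of all genes in liver, 12.5% had diets that did not overlap in CPM. Kidney diets also did not overlap for the copies of mt-Co3, mt-Atp6 and mt-Nd3, all lower on high salt and all between 0.954 and 0.995. With 3 against 3 an exact permutation test cannot go below a two-sided p of 0.10, and these ratios were not tested.

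**Figure D1:**
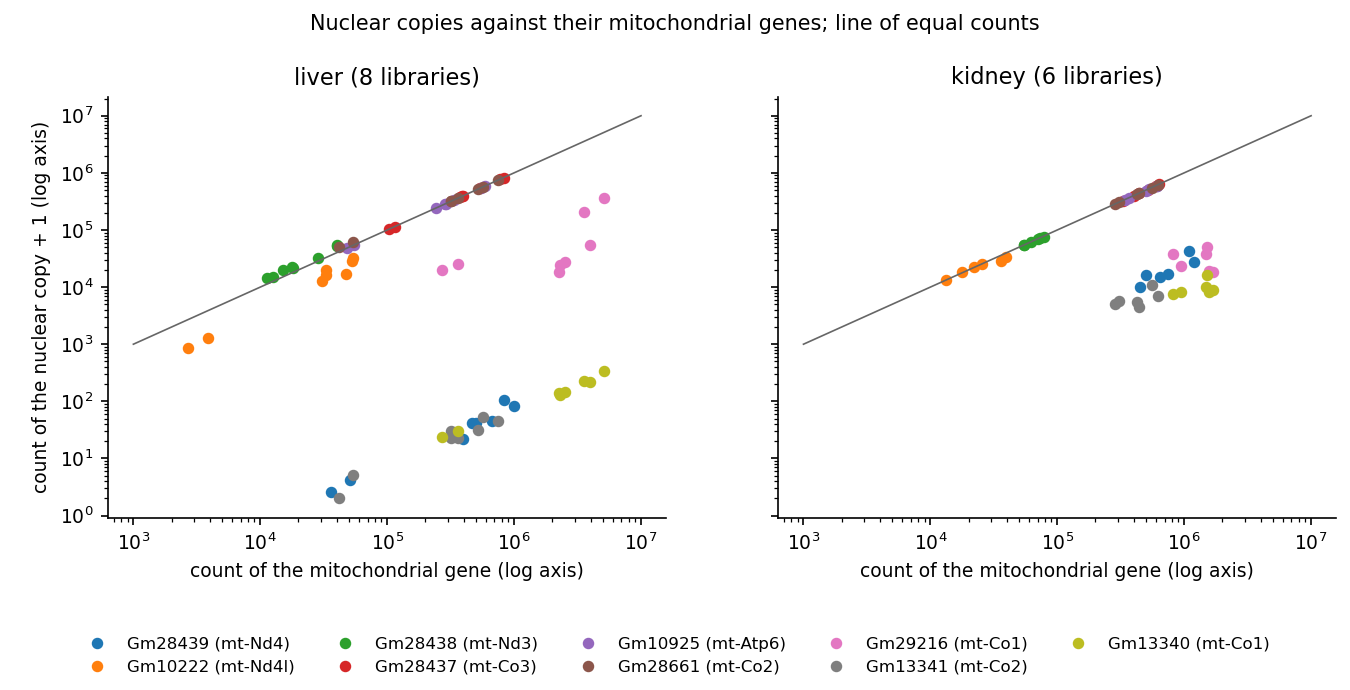
Count of each nuclear copy plus 1 (y, log axis) against the count of its mitochondrial gene (x, log axis), 1 point per library, liver left and kidney right, with the line of equal counts. The copies Gm28661 (of mt-Co2), Gm28437 (of mt-Co3), Gm10925 (of mt-Atp6) and Gm28438 (of mt-Nd3) lie on or near the line in both tissues. By contrast Gm28439, Gm13340 and Gm13341 lie far below it in liver and nearer to it in kidney.

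Before the comparisons, 2 features of the liver libraries need stating. Normal diet libraries 1 and 2 held few mitochondrial counts, and they also had another make-up of those counts. High salt libraries HS5 and HS6 were the most alike, with a chi-square of 1.59 per gene over 1892 genes, where sampling noise alone gives about 1. The chi-square was 9.83 to 62.8 for the remaining 11 same-diet liver pairs. They were kept as separate libraries, and the liver fits were repeated with the pair summed.

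The mitochondrial genes took up very different shares of the libraries. In normal diet liver they held 2.30%, 2.06%, 29.6% and 18.7% of the library total in libraries 1 to 4. In high salt liver they held 12.3%, 12.98%, 19.2% and 11.3% in HS5 to HS8. The normal diet libraries thus lay on both sides of all 4 high salt libraries, and the group means were 13.1% ± 13.4 (SD, n = 4) and 13.96% ± 3.59 (SD, n = 4). Without libraries 1 and 2 the normal diet mean was 24.1%. Kidney shares were 41.2%, 35.7% and 31.5% for the normal diet and 36.9%, 29.2% and 23.5% for high salt, with means of 36.1% ± 4.9 and 29.9% ± 6.7 (SD, n = 3 each). The kidney diets overlapped, since high salt library 1 lay above 2 of the normal diet libraries. The tissues overlapped as well, because liver library 3 on the normal diet (29.6%) lay above kidney high salt libraries 2 and 3.

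Counting error is small beside these differences. The 95% Wilson interval of the lowest share ran from 2.06% to 2.07% and that of the highest from 41.16% to 41.20%, and these intervals hold for counting error alone, since without molecular identifiers several reads can stem from 1 molecule. Adding the 9 aligned nuclear copies raised the shares to between 2.70% and 36.0% in liver and between 29.7% and 49.8% in kidney. In these bulk samples, fewer cells of a type and less RNA per cell cannot be told apart.

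Mitochondrial genes were also counted among the most abundant genes. Among the 20 genes with the highest counts, 1 was mitochondrial in each of normal diet liver libraries 1 and 2, 9 and 8 in libraries 3 and 4, 6 to 8 in high salt liver and 11 to 13 in kidney. The most abundant row in all 6 kidney libraries was mt-Co1, the catalytic core of complex IV. It ranked first in normal diet liver libraries 3 and 4, second in all 4 high salt liver libraries, and 16th and 17th in libraries 1 and 2.

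Other values moved with the low share of liver libraries 1 and 2. The 8 RNAs listed as kept in the nucleus summed to 155 and 144 CPM there, against 192 to 475 CPM in the other 6 liver libraries. Among them Malat1 stood at 36.1 and 26.8 CPM against 85.4 to 245 CPM, and Neat1 at 21.4 and 15.96 against 46.7 to 129.5. The lower sums lay in Malat1 and Neat1. Together, the remaining RNAs of the list lay within the range of the other liver libraries. The 4 endothelial markers summed to 27.5 and 23.5 CPM, against 38.2 to 66.4 CPM elsewhere in liver. Red blood cell markers (5 genes) were highest in library 1, at 1936 CPM, while library 2, at 724.5 CPM, lay within the 271 to 730 CPM of the others. The 5 hepatocyte markers summed to 67970 and 63500 CPM, within the 44470 to 100400 CPM of the other liver libraries. The part of these values in the low share was not tested.

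**Figure D2:**
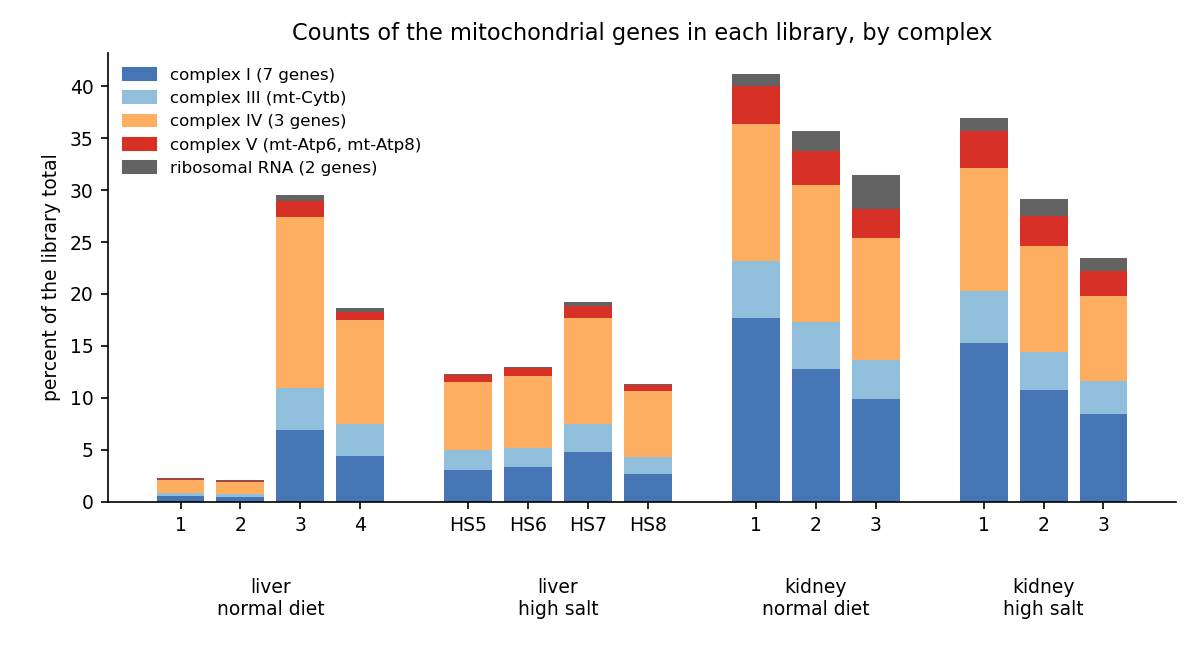
Percent of the library total held by the mitochondrial genes (y) in each of the 14 libraries (x, by tissue and diet), stacked by respiratory complex and ribosomal RNA. Normal diet liver libraries 1 and 2 stand at 2.30% and 2.06%, and the highest kidney library at 41.2%.

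The make-up of the mitochondrial counts differed by tissue more clearly than their total. Of the 15 genes with a row in both tables, 7 held parts of the mitochondrial counts that did not overlap between the 8 liver and the 6 kidney libraries, 6 of them higher in kidney and 1 lower. The share of all 16633 genes whose counts per mitochondrial count did not overlap was 18.0%, and in CPM it was 49.0%. Nearly all of those are nuclear genes, so neither share is a like background for parts within the sum. The gene that was lower in kidney was mt-Co1, and the higher ones were mt-Nd1, mt-Nd4, mt-Nd5, mt-Nd6, mt-Atp6 and mt-Atp8. Each of the 7 had a two-sided exact permutation p of 0.000333, the smallest that 3003 regroupings of 6 against 8 allow, before any correction for the 15 genes. The same 7 did not overlap when counts of the nuclear copies were added to their genes. Parts of a whole are tied to each other, so a large gene that holds less leaves more for the rest.

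Complex IV held most of the liver counts. The gene mt-Co1 alone made up 36.6%, 35.4%, 42.6% and 41.2% of the mitochondrial counts in normal diet liver and 41.5%, 40.6%, 39.7% and 42.8% in high salt liver. It made up 19.7%, 22.3% and 21.8% in normal diet kidney and 18.7%, 20.3% and 19.6% in high salt kidney. The lowest liver value was above the highest kidney value by a wide margin, and the means were 40.0% ± 2.7 (SD, n = 8) and 20.4% ± 1.4 (SD, n = 6). With the counts of the nuclear copies added to their genes the means were 34.2% and 17.0%. The 3 complex IV genes together held 53.1% to 55.7% in liver and 32.0% to 37.3% in kidney. Neither mt-Co2, which carries the copper site that receives electrons from cytochrome c (5.40% to 6.23% in liver, 6.06% to 7.47% in kidney), nor mt-Co3 (6.24% to 13.5% and 5.10% to 9.33%) separated the tissues.

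Complex I genes held more in kidney, at 31.4% to 42.9% of the mitochondrial counts against 21.2% to 25.5% in liver. The complex I subunit gene mt-Nd1 held 4.48%, 4.93%, 4.77% and 3.95% in normal diet liver, 5.25%, 5.60%, 5.35% and 4.92% in high salt liver, 8.19%, 6.71% and 6.45% in normal diet kidney and 8.20%, 7.40% and 8.003% in high salt kidney. For mt-Nd5, a proton-pumping subunit, the values were 3.12%, 2.78%, 2.82% and 4.35%, then 3.45%, 3.28%, 2.87% and 3.28% in liver, and 7.37%, 6.94% and 5.48%, then 6.50%, 6.54% and 4.98% in kidney, normal diet first. All 6 kidney values lay above all 8 liver values for both genes. The gene mt-Nd4 ranged from 4.73% to 8.49% in liver and from 9.49% to 13.9% in kidney, and mt-Nd2, whose ranges met (5.62% to 6.41% and 6.13% to 9.12%), did not separate the tissues.

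The only protein gene on the light strand was mt-Nd6. It held 0.915%, 0.958%, 0.902% and 1.13% in normal diet liver and 0.945%, 0.931%, 0.864% and 0.929% in high salt liver. In kidney it held 3.17%, 2.87% and 2.47% on the normal diet and 3.40%, 3.14% and 3.05% on high salt. The ratio of the tissue means was 3.18. In the fit of all genes with the mitochondrial sum as the library size, by the quasi-likelihood test of edgeR, mt-Nd6 was 1.67 higher in kidney on the log2 scale (SE 0.66, adjusted p = 0.0215). The transfer RNA genes of the light strand added almost nothing, at 0 to 42 counts per library in liver. Whether reads were counted by strand is not given in the sources used here, so reads of mt-Nd6 and of RNA opposite to it cannot be told apart.

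Both ATP synthase genes held more in kidney. The gene mt-Atp8 held 0.520%, 0.499%, 0.389% and 0.282% in normal diet liver and 0.377%, 0.503%, 0.567% and 0.324% in high salt liver. In kidney it held 1.72%, 1.53% and 1.45% on the normal diet and 2.23%, 1.91% and 1.76% on high salt. It was 2.02 higher in kidney on the log2 scale (SE 0.68, adjusted p = 0.00607) in the edgeR fit with the mitochondrial sum as the library size. The gene mt-Atp6 held 3.93% to 6.23% in liver and 7.03% to 8.32% in kidney, without passing in that fit (0.58, SE 0.64, adjusted p = 0.427). Of the 15 genes 3 passed, all higher in kidney: mt-Atp8, mt-Nd6 and mt-Rnr2. Over all 16633 genes 63.1% passed, and 9.38% passed as higher in kidney. The same 3 members had an unadjusted p under 0.05, against 66.9% of all genes. The gene mt-Co1, whose parts did not overlap between the tissues, did not pass by edgeR (-0.97, SE 0.63, adjusted p = 0.162). By contrast mt-Rnr2, whose parts overlapped, did pass. Standard errors of the members were 0.628 to 0.683 on the log2 scale, near the median of 0.692 over all genes. Passing in this fit therefore does not reflect the spread of each part alone. Without normal diet liver libraries 1 and 2, 7 of the 15 passed.

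The only complex III gene, mt-Cytb, was among the least variable. It held 14.7%, 14.2%, 13.5% and 16.6% in normal diet liver, 15.4%, 14.5%, 13.9% and 15.1% in high salt liver, 13.4%, 12.7% and 12.0% in normal diet kidney and 13.8%, 12.7% and 13.4% in high salt kidney. The tissues overlapped in the stretch from 13.5% to 13.8%.

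Ribosomal RNA was a small part of the counts. The small subunit RNA mt-Rnr1 held 1.16%, 1.10%, 0.813% and 0.840% in normal diet liver and 0.356%, 0.343%, 0.711% and 0.453% in HS5 to HS8. In kidney it held 0.872%, 1.36% and 2.40% on the normal diet and 0.914%, 1.53% and 1.74% on high salt. The large subunit RNA mt-Rnr2 held 2.69%, 2.51%, 1.23% and 1.21% in normal diet liver and 0.496%, 0.501%, 1.34% and 0.679% in high salt liver. It held 1.94%, 4.06% and 8.14% in normal diet kidney and 2.31%, 4.33% and 3.85% in high salt kidney, where normal diet library 3 stands apart. In the edgeR fit with the mitochondrial sum as the library size, mt-Rnr2 was 1.76 higher in kidney on the log2 scale (SE 0.66, adjusted p = 0.0148), but failed the threshold once normal diet kidney library 3 was left out (1.43, adjusted p = 0.0785). The libraries were made with a kit for messenger RNA, and how completely it takes up ribosomal RNA was not tested.

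Both ribosomal RNAs lie near the start of the heavy strand transcript, with the transfer RNA gene mt-Tv between them. Counts of mt-Rnr2, the longer gene (1582 against 955 bases), were 1.39 to 2.32 times those of mt-Rnr1 in liver and 2.21 to 3.39 times in kidney.

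**Figure D3:**
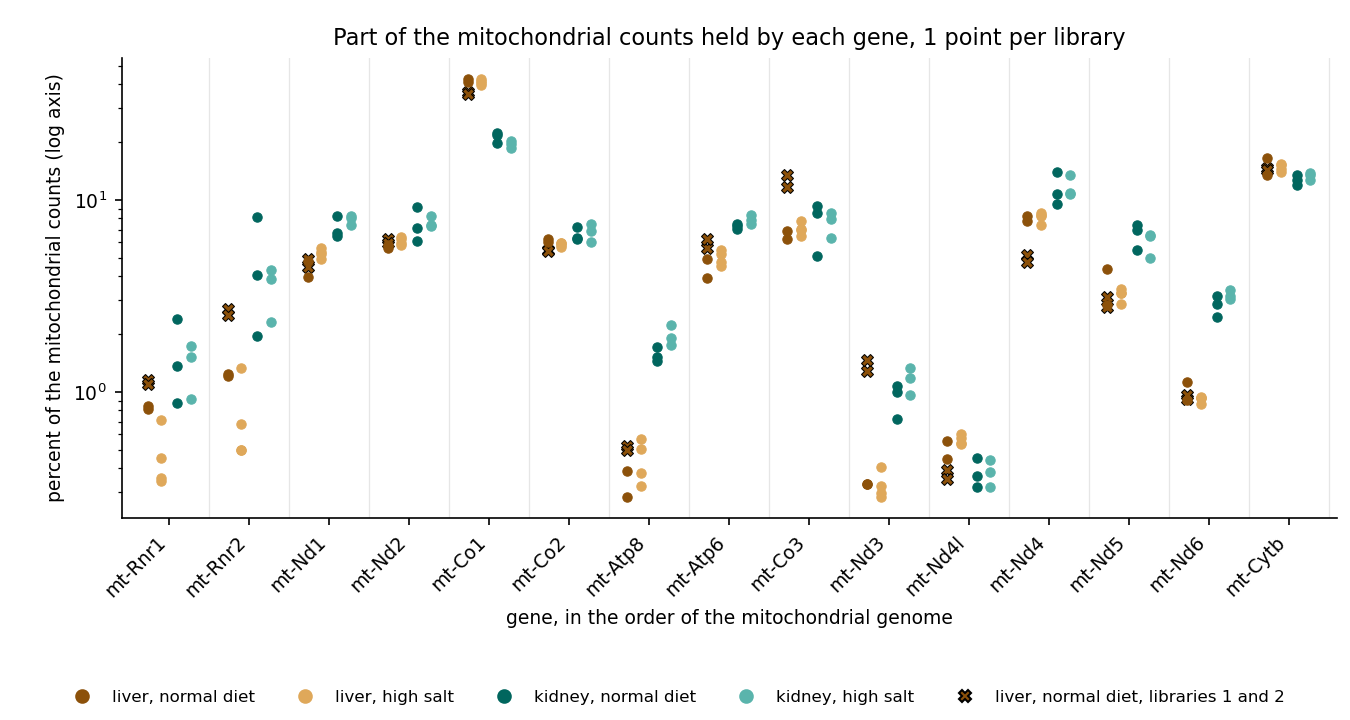
Percent of the mitochondrial counts (y, log axis) held by each of the 15 protein and ribosomal RNA genes (x, in genome order), 1 point per library coloured by tissue and diet, with crosses for normal diet liver libraries 1 and 2. The liver points of mt-Co1 (35.4% to 42.8%) all lie above the kidney points (18.7% to 22.3%), and those of mt-Atp8 and mt-Nd6 all lie below theirs.

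Normal diet liver libraries 1 and 2 differed from the other 6 liver libraries in make-up too. They had the highest liver parts of mt-Co3 (11.7% and 13.5%, against 6.24% to 7.79%), mt-Nd3 (1.28% and 1.47%, against 0.282% to 0.404%) and mt-Rnr2. They had the lowest liver parts of mt-Co1 and of mt-Nd4 (5.16% and 4.73%, against 7.41% to 8.49%). In mt-Cytb, mt-Nd1, mt-Nd2 and mt-Nd6 they lay within the range of the others. Summed over genes, libraries 1 and 2 differed from each other by 3.12 percentage points of the mitochondrial counts (the summed absolute difference divided by 2) and from libraries 3 and 4 by 10.2 to 13.8.

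Per kilobase of gene, which allows levels to be compared between genes, mt-Co1 ranked first in all 14 libraries by its own counts. With counts of the nuclear copies added to their genes, mt-Co1 was first in 6 of 8 liver libraries and in 0 of 6 kidney libraries, where mt-Atp6 (4 libraries), mt-Co2 (1) and mt-Co3 (1) were first. Its median level was 29487 CPM per kilobase in liver and 45267 in kidney, followed by mt-Cytb with medians of 14497 and 39200. The ranges of neighbours in this order overlapped between libraries, so the order was also read within each library. In liver mt-Cytb ranked 2 or 3 in every library and mt-Rnr1 and mt-Rnr2 took the last place in 3 and 5 libraries. In kidney mt-Nd4l was last in 4 libraries and mt-Rnr1 in 2. With the copies added, mt-Nd4l was last in 1 kidney library and mt-Rnr1 in 5, and in liver mt-Rnr1 and mt-Rnr2 again took 3 and 5 last places. CPM were scaled within each tissue.

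The 2 overlapping pairs of messenger RNAs gave ratios on this scale that differed between the liver and kidney libraries. Tissue and the run of the quantification cannot be told apart in these ratios. The genes of each pair are known to be carried on a shared RNA. The level per length of mt-Atp8 was 0.239 to 0.344 of that of mt-Atp6 in liver and 0.669 to 0.991 in kidney. With the counts of the nuclear copy added to mt-Atp6 it was 0.120 to 0.172 in liver and 0.337 to 0.50 in kidney. The level per length of mt-Nd4l was 0.251 to 0.361 of that of mt-Nd4 in liver and 0.137 to 0.165 in kidney, and with the copies of both genes added 0.404 to 0.508 and 0.263 to 0.326. Neither ratio overlapped between the tissues, and they differed in opposite directions. The level per length of mt-Nd6 was 0.915 to 1.21 of that of mt-Nd5, its opposite-strand neighbour, in liver and 1.45 to 2.15 in kidney.

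**Figure D4:**
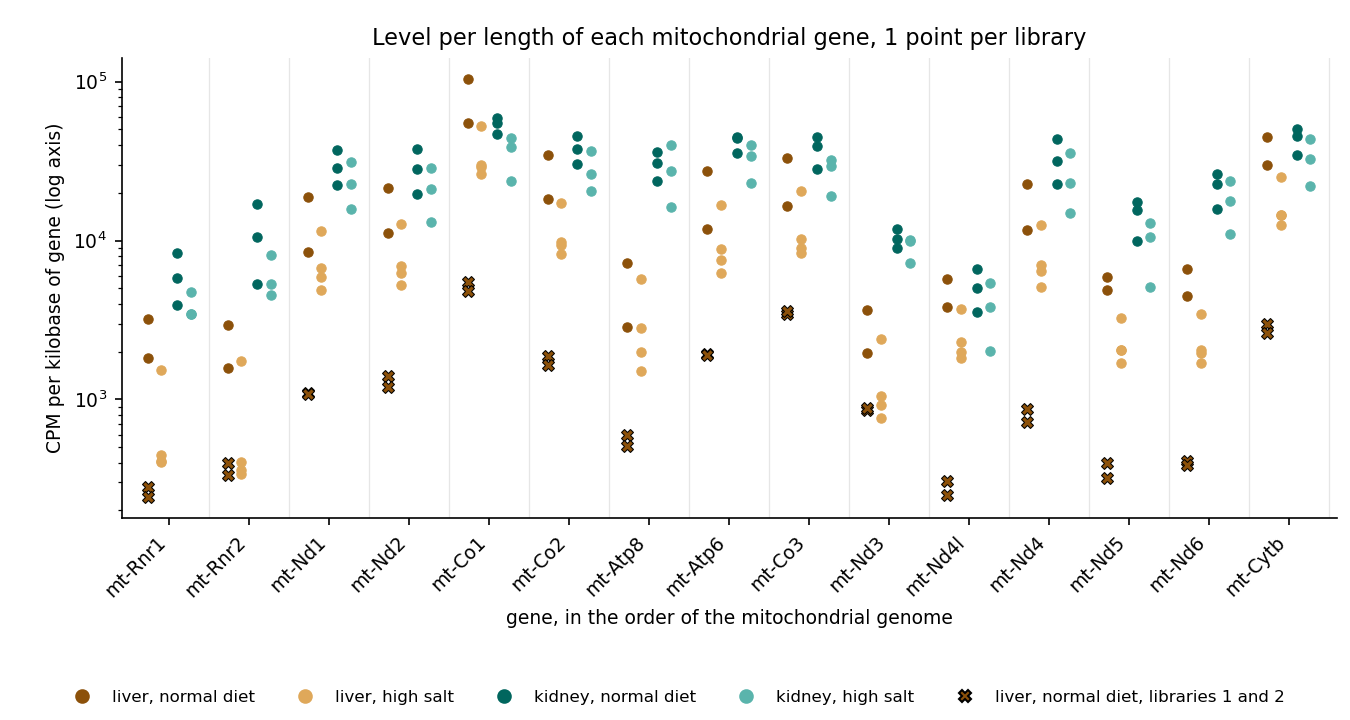
Level per length in CPM per kilobase (y, log axis) of the 15 protein and ribosomal RNA genes (x, in genome order), 1 point per library coloured by tissue and diet, with crosses for normal diet liver libraries 1 and 2. Copies are not added. The highest gene in each library is mt-Co1, and the crosses lie below the other liver points in the protein genes except mt-Nd3.

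Transfer RNAs, which carry amino acids to the mitochondrial ribosome, were barely counted. In liver mt-Ts1 had 1, 0, 15 and 18 counts in normal diet libraries 1 to 4 and 17, 16, 40 and 3 in HS5 to HS8. The count was low in libraries 1 and 2 and in HS8, and the diets overlapped. The transfer RNA for proline, mt-Tp, had 0 to 5 counts and was not tested. A count of 0 allows up to 3 counts. The other 16 liver members passed the filter on low counts, as did all 15 in kidney.

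Between the tissues on the normal diet, 4 of 15 mitochondrial genes passed in the edgeR fit of all genes, and all 4 were higher in kidney. Of all 16633 genes, 65.1% passed and 32.2% passed as higher in kidney, so the members' count is below the background. The 4 genes were mt-Atp8 (2.93 on the log2 scale, SE 0.75, adjusted p = 0.00312), mt-Rnr2 (2.55, SE 0.77, adjusted p = 0.00867), mt-Nd6 (2.36, SE 0.77, adjusted p = 0.0135) and mt-Nd3 (1.98, SE 0.49, adjusted p = 0.0022). The lowest was mt-Co1, at -0.16 (SE 0.88, adjusted p = 0.882 by edgeR). At an unadjusted p under 0.05 there were 6 members, with mt-Nd5 (1.82) and mt-Rnr1 (1.62) added, against 68.0% of all genes. The standard errors of the members had a median of 0.777 against 0.328 over all genes. Without normal diet liver library 3, 12 of the 15 passed. With libraries 1 and 2 left out, mt-Rnr2 did not pass (1.78, adjusted p = 0.0607).

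On high salt the same 4 genes passed together with mt-Rnr1, which makes 5 of 15, all higher in kidney, against 62.7% of all genes and 30.0% higher in kidney. The values by edgeR were 2.67 for mt-Atp8 (SE 0.75, adjusted p = 0.00577), 2.54 for mt-Rnr2 (SE 0.77, adjusted p = 0.00917), 2.40 for mt-Nd6 (SE 0.77, adjusted p = 0.0129), 2.28 for mt-Nd3 (SE 0.49, adjusted p = 0.000835) and 1.94 for mt-Rnr1 (SE 0.74, adjusted p = 0.0326). The same 5 had an unadjusted p under 0.05, against 66.0% of all genes. The call of mt-Rnr1 was lost with HS5 and HS6 summed (1.75, adjusted p = 0.0827) and when any 1 of HS5, HS6, HS8 or the 3 high salt kidney libraries was left out. Again mt-Co1 was lowest, at -0.50 (SE 0.89, adjusted p = 0.645). On each diet 14 of the 15 members were above 0 under each scaling. The size factors of DESeq2 moved the median of all genes on high salt from -0.051 to 0.084 and that of the members from 1.14 to 1.27. In CPM 4 of the 15 genes had tissues that did not overlap over both diets, against 49.0% of all genes.

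In liver, no mitochondrial gene passed between the diets. Of 16 tested, 0 had an adjusted p under 0.05 by edgeR and 0 an unadjusted p under 0.05, against 1.00% and 21.2% of the 15130 genes tested, and DESeq2 called 0 as well. Fold changes on the log2 scale, high salt minus normal diet, ran from -0.99 for mt-Rnr1 (SE 0.81) and -0.89 for mt-Rnr2 (SE 0.77) to 0.71 for mt-Ts1 (SE 0.99), with 2 above and 14 below 0. The smallest adjusted p was 0.494. For mt-Co1 the levels were 8520, 7400, 161590 and 84788 CPM in normal diet libraries 1 to 4 and 44717, 46397, 81655 and 40428 CPM in HS5 to HS8. The high salt libraries lay between the 2 low and the 2 high normal diet libraries, and no member had diets that did not overlap in CPM, against 12.5% of all genes.

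The direction in liver changed with libraries 1 and 2 and with the scale. With all 8 libraries, the difference of the mean log2 CPM was above 0 for 12 of 15 protein and ribosomal RNA genes, with a median of 0.67. Without libraries 1 and 2 it was below 0 for all 15, from -2.06 to -0.78. By edgeR mt-Co1 was -0.30 (SE 0.87) with all libraries, -1.21 without libraries 1 and 2, and 0.67 without library 3, and none of these passed. Counted over all 16 members in the edgeR fit, 14 were below 0 with all libraries, 16 without libraries 1 and 2 and 2 without library 3. By limma on the deposited normalized values, 3 were below 0.

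The part of the mitochondrial counts held by mt-Rnr1 was lower in every high salt liver library than in any normal diet library. The means were 0.466% ± 0.171 and 0.979% ± 0.177 (SD, n = 4 each), with a two-sided exact permutation p of 0.0286, the smallest that 70 regroupings of 4 against 4 allow, before any correction for the 15 genes examined. It was the only 1 of them without overlap. Of all genes, 0.324% did not overlap relative to the mitochondrial sum and 12.5% did not in CPM. Nearly all of those are nuclear genes, whose ratios to the sum carry the swing of the mitochondrial share. The 0.324% is therefore not a like background for parts within the sum. The margin was small, from 0.711% in HS7 to 0.813% in normal diet library 3. With HS5 and HS6 summed the means were 0.504% and 0.979% (3 against 4 libraries), still without overlap (two-sided exact permutation p = 0.0286). Without any 1 of the 4 normal diet libraries the exact permutation p was 0.0571, and without libraries 1 and 2 it was 0.0667, the smallest that 15 regroupings allow. Some marker sums also did not overlap between these diets. They were hepatocyte, 44470 to 67970 CPM on the normal diet and 84250 to 100400 on high salt, red blood cell, 724.5 to 1936 and 271 to 719.6, and fibroblast or stellate cell (4 genes), 55.8 to 110.4 and 125.6 to 134.2. Immune cell markers (60.7 to 102.6 and 33.5 to 66.5) and endothelial markers (23.5 to 62.5 and 38.2 to 66.4) did overlap. The part of the marker sums in the result was not tested. In the edgeR fit with the mitochondrial sum as the library size, mt-Rnr1 was -1.07 (SE 1.11, adjusted p = 0.462), and none of 16 members passed, against 0.0661% of all genes. Standard errors of the members were 0.96 to 1.12, around the median of 1.09 over all genes. For mt-Cytb it was 1.00, though its part was 14.7% ± 1.3 and 14.7% ± 0.67 by diet (SD, n = 4 each). The fit estimates spread over all genes, most of them nuclear, so it cannot show that the parts are unchanged. When counts of the nuclear copies were added to their genes, the parts of mt-Nd1, mt-Nd2 and mt-Nd4l also did not overlap, all 3 higher on high salt.

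In kidney all 15 genes had lower fitted levels on high salt, and none passed. The log2 fold changes ran from -0.87 for mt-Rnr2 (SE 0.44) to -0.12 for mt-Atp8 (SE 0.35), with a median of -0.44 against -0.025 over all genes. Every adjusted p by edgeR was 1, the smallest unadjusted p was 0.0774, and 0.00% of the 15847 genes tested passed, while 2.01% had an unadjusted p under 0.05. DESeq2 called 11 genes in all and no member. All 15 were below 0 under each scaling tried, and 14 without normal diet library 1 or without high salt library 3, where the medians were -0.29 and -0.19. The genes share 1 scale and 1 set of RNAs, so their common sign is not 15 separate results.

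The level of mt-Co1 in kidney was 84851, 91264 and 72060 CPM on the normal diet and 67816, 59934 and 36869 CPM on high salt. It was the only member whose diets did not overlap in CPM, against 6.88% of all genes, and its log2 fold change was -0.59 (SE 0.30). For mt-Cytb the levels were 57898, 51784 and 39720 CPM and then 49969, 37314 and 25250 CPM, which overlap. Cell type markers differed between the kidney libraries. The 4 proximal tubule genes summed to 2886, 1750 and 1680 CPM on the normal diet and 2501, 1918 and 2382 CPM on high salt, with the highest sum and the highest share in normal diet library 1. The lowest share was that of high salt library 3, whose sum was the third highest. Normal diet library 1 had the lowest sums of the kidney libraries for immune cell markers (27.2 CPM, against 46.7 to 160.5), red blood cell markers (350 against 730 to 1549), podocyte markers (27.2 against 44.8 to 93.6), endothelial markers (66.1 against 83.8 to 98.6) and fibroblast markers (62.7 against 117 to 162.1). The part of these markers in the share was not tested.

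Within the kidney mitochondrial counts the parts of both ATP synthase genes did not overlap between the diets and were higher on high salt. The gene mt-Atp6 held 7.03%, 7.49% and 7.26% on the normal diet and 7.51%, 7.89% and 8.32% on high salt, and mt-Atp8 held 1.57% ± 0.14 against 1.96% ± 0.24 (SD, n = 3 each). These were the 2 of 15 genes without overlap, each with a two-sided exact permutation p of 0.10, the smallest that 3 against 3 can give. Of all genes, 17.7% had no overlap relative to the mitochondrial sum and 6.88% had none in CPM, so 2 of 15 is near the former. Nearly all of those are nuclear genes. The median of all genes relative to the sum was 0.53 on the log2 scale, so 17.7% is not a like background for parts within it. With the nuclear copies added, only mt-Atp6 did not overlap, and mt-Atp8 did (exact permutation p = 0.20). By edgeR with the mitochondrial sum as the library size, none of the 15 passed, against 0.290% of all genes. That fit also estimates spread over all genes, so it cannot show that the parts are unchanged.

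**Figure D5:**
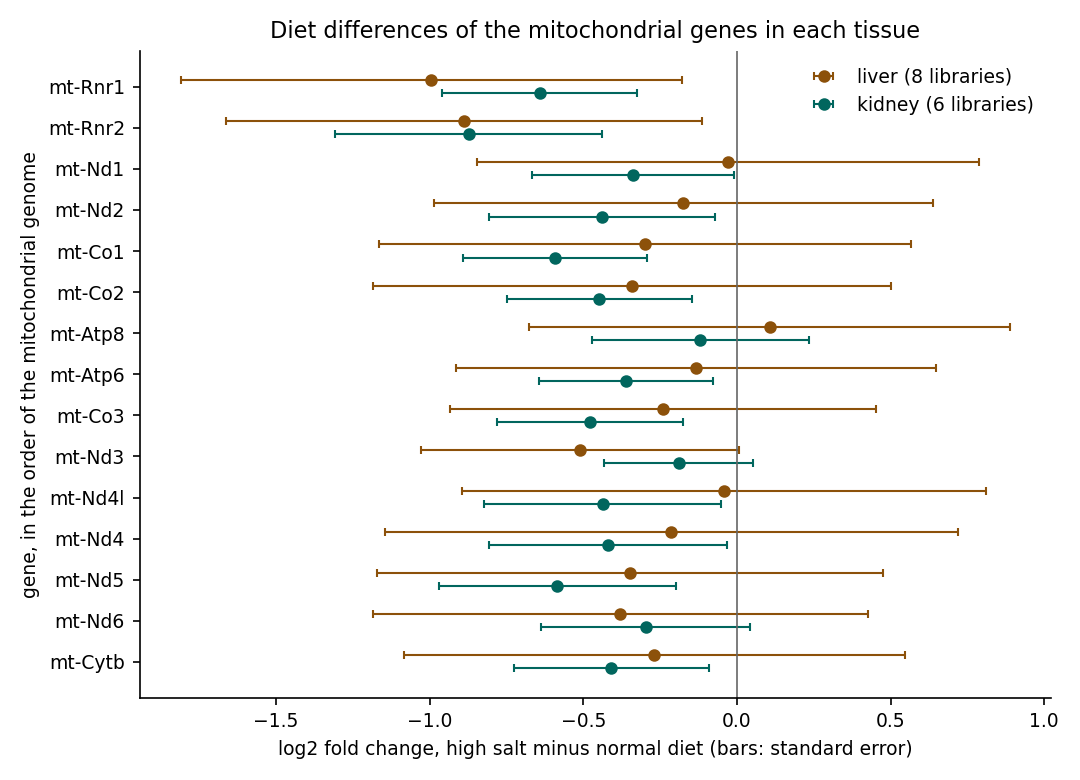
Log2 fold change from the normal diet to high salt (x, with standard errors) of 15 mitochondrial genes (y, in genome order) in liver and kidney, from the edgeR fit of each tissue. All 15 kidney values lie below 0, from -0.87 to -0.12, and the liver standard errors reach across 0 for all genes but mt-Rnr1 and mt-Rnr2.

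The diet effect was not found to differ between the tissues for any member. The interaction fit of edgeR called 0 of 15 members and 0.00% of all 16633 genes, with differences from -0.44 to 0.32 and standard errors of 0.683 to 1.27. At an unadjusted p under 0.05 there were 0 members and 10.1% of all genes, and DESeq2 called no member. With standard errors of this size, only differences of several fold would have been detected.

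The nuclear genes that serve the mitochondrial genome did not pass between the diets either. Among 23 genes for upkeep and transcription of mitochondrial DNA, 0 passed in either tissue, where 1.00% of all genes in liver and 0.00% in kidney did, so a count of 0 in this and the lists that follow is near the background. The median log2 fold change of these genes was -0.14 in liver and -0.13 in kidney, against -0.023 and -0.025 over all genes. Tfam, which packages mitochondrial DNA and opens its promoters, stood at -0.14 (SE 0.20) in liver and -0.14 (SE 0.23) in kidney. Polrmt, the mitochondrial RNA polymerase, stood at 0.35 (SE 0.19) and 0.11 (SE 0.31), and its partner Tfb2m at 0.029 (SE 0.16) and -0.17 (SE 0.20). Tfam was highest in liver in libraries 1 and 2, at 47.1 and 46.0 CPM against 27.1 to 37.8 CPM in the other 6, the 2 libraries with the fewest mitochondrial counts.

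Genes for the processing and decay of mitochondrial RNA had medians of -0.11 in liver (30 of 31 tested) and -0.047 in kidney (30 tested), with 0 past the threshold. Lrpprc, which stabilises mitochondrial messenger RNAs, stood at 0.22 (SE 0.13) and 0.094 (SE 0.28). Among 19 regulators of mitochondrial biogenesis 16 had values above 0 in liver and 5 in kidney, with 0 passing, and Ppargc1a, a coactivator of respiratory genes, stood at 0.44 (SE 0.30) and -0.25 (SE 0.24).

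Of 79 mitochondrial ribosomal protein genes, 78 had values below 0 in liver, with a median of -0.40, and 50 in kidney, with a median of -0.068. None passed, and 35 in liver and 0 in kidney had an unadjusted p under 0.05, where 21.2% and 2.01% of all genes did. Nuclear subunits of the respiratory chain had medians of -0.33 in liver (77 of 86 below 0) and -0.19 in kidney (62 of 85 below 0), with 0 past the threshold. The listed nuclear copies had medians of -0.37 in liver (12 tested) and -0.21 in kidney (13 tested). Of those that did not align, Gm10175, Gm10221 and Gm10288 stood at -0.39, -0.51 and -0.57 in liver and -0.12, -0.40 and -0.30 in kidney, and Gm10224, tested in kidney, at 0.54. The RNAs listed as kept in the nucleus had medians of -0.0029 in liver and -0.19 in kidney, with all 8 below 0 in kidney and 0 past the threshold.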

How the data were processed

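Per the submitters' processing notes, the authors worked in Partek 7.0 with STAR 2.5.3a and DESeq2 on mm10. Per the file headers, the authors' deposited count tables hold expected counts per gene from an expectation-maximisation step, of which 58.5% were whole numbers in liver and 64.2% in kidney. Values of 1000000 or more were deposited with 3 significant digits, which touched 9 of 136 mitochondrial values in liver and 8 of 90 in kidney. How reads that map to several places were handled, and whether strand was used, is not given in the sources used here. A second pair of deposited tables holds a normalized signal per gene whose method the authors do not state. It served only in an alternative fit.

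Expected counts were rounded and fitted in R 4.3.3 with edgeR 4.0.16 (TMM scaling, low-count filter, quasi-likelihood test, Benjamini-Hochberg adjusted p over all genes, threshold 0.05), for each tissue and for both together. The part of each gene was fitted with the mitochondrial sum as the library size. Spread in that fit was estimated over all genes, most of them nuclear, so its standard errors and p-values do not measure the spread of the parts alone. Alternatives used DESeq2 1.42.0, limma 3.58.1 (log2 of the value plus 1, mean of at least 10), other scalings and left-out libraries. The edgeR fits with TMM scaling and with the mitochondrial sum were checked on simulated data, for the first comparison of each fit only. The simulated libraries shared a common profile, so the spread in mitochondrial share was not simulated. The alternative fits were not checked this way. Copies were aligned with BLAST 2.17.0 (E-value up to 1e-10). Sequences came from GRCm38. Groups followed the labels. Liver and kidney sit in separate tables with different depth, so tissue and table cannot be told apart. The members and gene lists were chosen with earlier results of these data known. Genes named are the members, the aligned copies and set examples of each list.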

Additional observations from a re-analysis of the deposited data

Results flagged for a closer look

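Ratios of nuclear copies to their mitochondrial genes gave 4 liver values, from 3 libraries, that stood far from the other 3 of their group. They came from 66 groups of 4 examined, where chance gives about 1 in 20, so the number of flags is near that rate. The ratio of Gm10222 to mt-Nd4l was 0.608797 in normal diet library 3 and 0.320817 to 0.350133 in the others. In the same library the ratio of Gm10925 to mt-Atp6 was 0.995756, against 0.997925 to 0.998323. Normal diet library 4 had 0.057781 for Gm29216 to mt-Co1, against 0.070913 to 0.0733767. High salt library HS6 had 6.15897e-05 for Gm13340 to mt-Co1, against 5.62074e-05 to 5.68472e-05.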

How the results depend on the processing

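In the diet fits and the interaction, 0 mitochondrial genes passed under every alternative run. Over all genes in liver, 152 calls became 1122 with DESeq2, 52 without normal diet libraries 1 and 2, 12 with HS5 and HS6 summed, and 12 (without HS6) to 765 (without normal diet library 3) with 1 library left out. Relative to the mitochondrial sum, the 10 liver calls became 32 with no filter, 1715 without libraries 1 and 2, 0 with HS5 and HS6 summed and 0 to 5619 (without library 3) with 1 left out. With 1 library left out, the liver log2 fold change ran from -0.67 to 0.67 for mt-Co1, from -1.01 to 0.056 for mt-Nd3 and from -0.75 to 0.37 for mt-Nd6, each above 0 only without normal diet library 3. By limma on the deposited normalized values, mt-Co1 was 0.74 and mt-Nd6 0.57.

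DESeq2 called 11 kidney genes where edgeR called 0. Relative to the mitochondrial sum, 46 kidney calls became 87 with no filter and 0 (without high salt library 3) to 83 (without high salt library 1) with 1 left out. With the replicate number as a block, these were 6, and 0 mitochondrial genes passed in kidney. Same-numbered kidney libraries had correlations of 0.406, 0.373 and -0.09, so the numbers were not taken to pair the samples.

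Between tissues on the normal diet, the 4 mitochondrial calls became 7 with DESeq2, 2 with libraries 1 to 3 of each tissue, 5 with a block on these numbers, and 4 to 12 (without liver library 3) with 1 left out. There mt-Co1 ran from -0.53 to 0.81 (without liver library 3), and was 1.68 with that block. On high salt, 5 calls became 8 without normal diet liver libraries 1 and 2, and the 3 calls relative to the mitochondrial sum became 7. The interaction called 145 genes with DESeq2, 1 without libraries 1 and 2 and 0 to 7 (without HS7) with 1 left out. Adding the listed or the aligned nuclear copies raised the mean kidney share to 44.564% or 44.507% on the normal diet and 37.276% or 37.224% on high salt. The cause of these shifts was not tested. Of 852 alternative values for 57 results, 785 were labelled as unchanged. For tests this means the same direction and call. For counts of calls it means a count within a set ratio of the main one. For mean shares it means a shift under the SD of the group, which is wide in normal diet liver. Counting depth was lowest for the transfer RNAs, at 0 to 42 counts per liver library.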

Other observations

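The normalized kidney table lists 24399 genes, more than the count table, and among them mt-Te and mt-Ts1, transfer RNA genes with no row in the kidney counts. Their highest normalized values were 1.21 and 2.41. In the normalized liver table the highest value of mt-Ts1 was 36.0 and that of mt-Tp 6.85.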
